A study of Mus musculus with 8 samples.

Results

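Amino acids that a cell cannot make, or cannot make fast enough, enter through carrier proteins of the plasma membrane. The 10 genes described here encode such carriers or a subunit of them: *Slc7a1*, *Slc7a3*, *Slc7a5*, *Slc7a6*, *Slc7a11*, *Slc3a2*, *Slc1a4*, *Slc1a5*, *Slc38a1* and *Slc38a2*. They were taken by symbol from a table of 17167 genes, and all 10 were present. The list had been chosen from measured values, with the difference between the groups compared here in view, so that the differences of these 10 genes are given as a description and without a test. All 10 passed the filter on low counts that kept 14428 genes for testing.

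The data are RNA-seq counts from cultured undifferentiated spermatogonia (Aundiff), the germ cells of the testis that include the spermatogonial stem cells. Cells were enriched from adult wildtype mouse testis by CD9, grown as primary cultures on inactivated embryonic fibroblast feeders, separated from the feeders by adhesion to plastic and plated on Geltrex. For 20 h they then received either DMSO, the vehicle, or AGX51, an inhibitor of all ID proteins, which hold E-protein transcription factors away from DNA. Each of 4 cultures from separate mice gave 1 library per treatment, 8 in all, and a culture is named here by its replicate number, 1 to 4. The AGX51 dose was 80 µM by the study's methods, while the sample labels print it in mM. The strain is CBA/J by the labels and C57BL/6J by the methods. RNA came from whole wells, so that fewer cells of a type and less RNA per cell cannot be told apart.

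Carriers of this kind are grouped by what they move. Cationic amino acid transporters bring in arginine and lysine. Heteromeric transporters pair a light chain, which moves the amino acid, with the heavy chain 4F2hc (also known as CD98), which takes the light chain to the cell surface. Sodium-coupled carriers of the ASCT and SNAT types move small neutral amino acids such as alanine, serine and glutamine. Several of these genes are known targets of ATF4, a transcription factor that is made when amino acids are short, among other conditions. ATF4 binds with C/EBP partners to elements of the form TGATGNAA. In spermatogonial cultures amino acids come from the medium, glutamine and cystine among them.

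For 6 of the 10 genes a RefSeq promoter window was at hand (GRCm38.p6, 250 bases before to 50 after a start site), 8 windows in all because *Slc7a1* and *Slc7a6* have 2 start sites each. TGATGNAA, searched on both strands, was found in the windows of *Slc7a11* and *Slc1a4*, that is in 2 of 8, against 3.97% of 32851 windows of the same length and 2.24% of 13432 windows of tested genes. The stretches from 120 bases before to 30 after the start site are shown for these 2 genes because of the matches, which are in capitals (TTGCATCA is a match on the reverse strand). The same stretch of *Slc7a6*, which holds no match and whose level is the least different between the groups among the 10, is shown for comparison. The windows of *Slc7a1*, *Slc3a2* and *Slc38a2* hold no match either, and these genes were higher with AGX51 (log2 fold change 1.15, 1.05 and 0.74). Sequence outside the windows was not searched, so that an element elsewhere in a gene would be missed. The stretches shown lie at chr3:50443584-50443733 (minus strand), chr11:20332684-20332833 (minus strand) and chr8:106168734-106168883 (plus strand), and are written 5′ to 3′.
Slc7a11: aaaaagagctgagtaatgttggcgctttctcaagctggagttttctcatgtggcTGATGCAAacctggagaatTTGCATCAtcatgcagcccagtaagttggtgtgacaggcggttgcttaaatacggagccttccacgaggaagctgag
Slc1a4: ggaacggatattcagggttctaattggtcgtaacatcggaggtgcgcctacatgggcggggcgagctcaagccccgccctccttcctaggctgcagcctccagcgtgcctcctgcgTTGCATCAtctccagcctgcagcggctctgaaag
Slc7a6: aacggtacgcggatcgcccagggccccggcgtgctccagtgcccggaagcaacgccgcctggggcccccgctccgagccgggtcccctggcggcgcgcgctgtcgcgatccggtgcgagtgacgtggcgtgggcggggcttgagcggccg

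The *Slc7a11* matches begin 66 and 47 bases before the start site, at 50443672 to 50443679 and 50443653 to 50443660, and face opposite ways. The *Slc1a4* match begins 4 bases before the start site, at 20332710 to 20332717. TGACNNNGC, the antioxidant-type element bound by NRF2 with its partners, was found in 4 of the 8 windows. These were 1 of *Slc7a1*, both of *Slc7a6* and that of *Slc38a2*. Its share was 12.4% of all windows and 14.2% of windows of tested genes. The 2 *Slc7a6* windows overlap and share 1 match. The E-box CANNTG, the element that E proteins bind, was found in 4 of 8 windows and in 72.3% of all windows, and its form CACGTG in 0 of 8 and 7.15%. Among windows of tested genes, CANNTG was found in 64% and CACGTG in 10.1%. No match of the other motifs overlapped a TGATGNAA match. A match is a description of the letters and shows no binding.

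**Figure D1:**
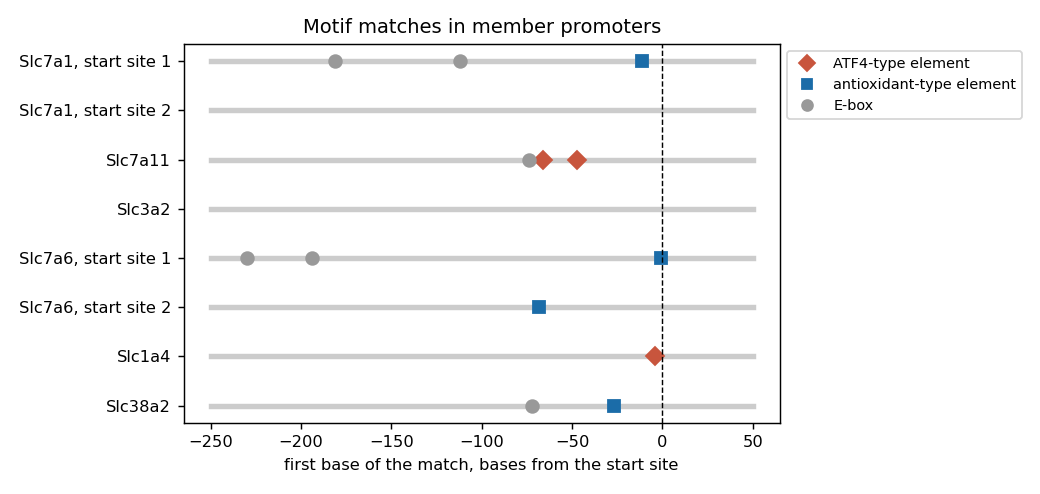
Motif matches in the 8 promoter windows of 6 of the genes. Each grey line is a window, the horizontal axis gives the distance of the first base of a match from the start site in bases, and the dashed line marks the start site. Matches to TGATGNAA (diamonds, ATF4-type) lie only in the windows of Slc7a11 and Slc1a4; squares are TGACNNNGC and circles are CANNTG.

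Levels are given as CPM, a gene's counts scaled to the total of its library, in the order of cultures 1 to 4. The libraries are primed at the poly(A) tail and CPM is not corrected for length, so that levels are compared between libraries and not between genes. Log2 fold changes of AGX51 against vehicle and their standard errors (SE) come from edgeR's quasi-likelihood fit over all 14428 tested genes, in which a gene counts as higher or lower when its Benjamini-Hochberg adjusted p is under 0.05 and its fold is above 1.5. By this rule 7 of the 10 transporter genes were higher with AGX51, none was lower and 3 (*Slc7a5*, *Slc7a6* and *Slc38a1*) met neither side; 8.57% of all tested genes were higher and 9.93% lower. No log2 fold change of the 10 was below 0. Because the genes were picked on this difference, nothing is read from those counts. The median log2 fold change was 0.90 over the 10 genes (0.09 to 3.39) and 0 over all tested genes.

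*Slc7a1* and *Slc7a3* encode CAT1 and CAT3, carriers of arginine, lysine and ornithine. CAT1 is the broadly expressed form. *Slc7a1* (ENSMUSG00000041313; chromosome 5, 148327410 to 148399904, GRCm38) stood at 37.7, 41.4, 43.4 and 40.8 CPM in vehicle and at 110.2, 98.5, 60.5 and 78.4 CPM in AGX51. Every AGX51 library lay above every vehicle library, and the AGX51 libraries were far apart, with culture 3 the lowest. The group levels were 40.8 ± 2.35 and 86.9 ± 22.0 CPM (SD, n = 4), so that the coefficient of variation went from 5.75% to 25.3%. The log2 fold change was 1.15 (SE 0.13).

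*Slc7a3* (ENSMUSG00000031297; chromosome X, 101079210 to 101086020) was at 1.21, 3.12, 2.11 and 1.98 CPM in vehicle and at 21.1, 21.8, 17.7 and 19.2 CPM in AGX51. These values rest on 11 to 26 counts in each vehicle library and on 94 to 162 counts with AGX51. The groups were well apart and the AGX51 libraries were close together, at 20.0 ± 1.86 CPM against 2.11 ± 0.787 CPM (SD, n = 4). With a log2 fold change of 3.32 (SE 0.22) the gene ranked 11 among all tested genes, counted from the largest log2 fold change. Within a library, the count of *Slc7a3* relative to that of *Slc7a1* was 0.032 to 0.0754 in vehicle and 0.192 to 0.293 in AGX51, and it was greater in 4 of 4 cultures. Both cationic transporter genes were thus above vehicle in every culture, and *Slc7a3* by the larger factor.

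**Figure D2:**
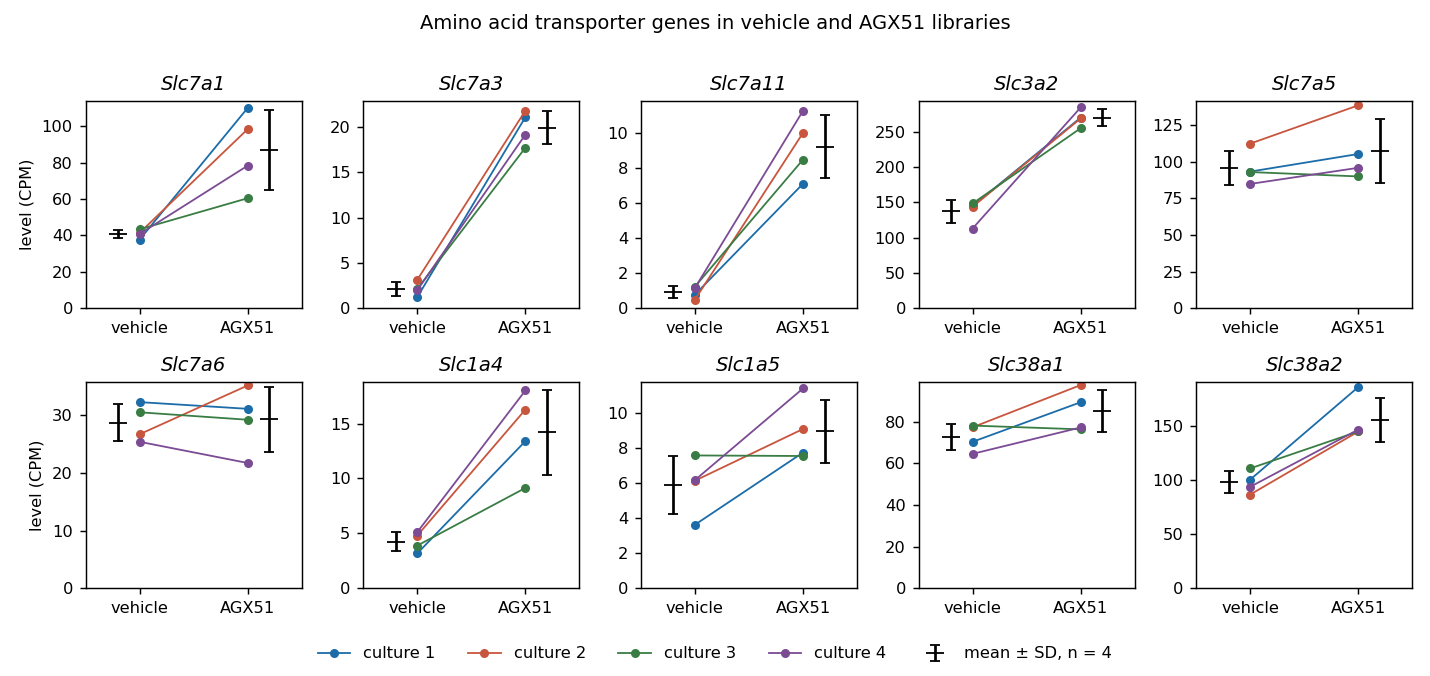
Level of each of the 10 transporter genes in CPM (vertical axes, each from 0) in vehicle and AGX51 libraries. Points are libraries, lines join the 2 libraries of a culture, and black marks are the mean ± SD of 4 libraries. All AGX51 points lie above all vehicle points for Slc7a1, Slc7a3, Slc7a11, Slc3a2, Slc1a4 and Slc38a2, and the points of Slc7a5, Slc7a6, Slc1a5 and Slc38a1 overlap.

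*Slc3a2* encodes the heavy chain 4F2hc, and *Slc7a5*, *Slc7a6* and *Slc7a11* encode light chains that pair with it. *Slc3a2* (ENSMUSG00000010095; chromosome 19, 8706882 to 8723369) was at 145, 144, 148 and 113 CPM in vehicle and at 270.3, 269, 255 and 285 CPM in AGX51. No vehicle library reached the lowest AGX51 library, and culture 4 had the lowest vehicle and the highest AGX51 value. Group levels were 137 ± 16.5 and 269.9 ± 12.0 CPM (SD, n = 4), with a log2 fold change of 1.05 (SE 0.11).

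*Slc7a11* (ENSMUSG00000027737; chromosome 3, 49892526 to 50443614) encodes xCT, which takes up cystine in exchange for glutamate and so feeds glutathione synthesis. It was at 0.767, 0.480, 1.22 and 1.15 CPM in vehicle and at 7.09, 9.99, 8.47 and 11.3 CPM in AGX51. Behind the vehicle values stand 4 to 11 counts, and behind the AGX51 values 43 to 95. Even the lowest AGX51 library was several times the highest vehicle library. Group levels were 0.904 ± 0.346 and 9.20 ± 1.81 CPM (SD, n = 4), a ratio of means of 10.2. The log2 fold change of 3.39 (SE 0.29) was the largest of the 10 genes and ranked 9 among all tested genes.

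*Slc7a5* (ENSMUSG00000040010; chromosome 8, 121881150 to 121907694) encodes LAT1, the carrier of leucine and other large neutral amino acids. Its levels were 93.4, 112.5, 93.0 and 84.9 CPM in vehicle and 105, 139, 90.0 and 96.0 CPM in AGX51. The groups overlapped, with culture 2 the highest in both. The log2 fold change was 0.23 (SE 0.12).

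*Slc7a6* (ENSMUSG00000031904; chromosome 8, 106168857 to 106198706) encodes y+LAT2, which exchanges arginine for glutamine and sodium. It was at 32.2, 26.7, 30.5 and 25.4 CPM in vehicle and at 31.1, 35.1, 29.2 and 21.7 CPM in AGX51. The AGX51 libraries held both the highest and the lowest value, and the log2 fold change was 0.09 (SE 0.14). Ratios of counts within a library show how far the heavy chain and light chain genes moved apart. Counts of *Slc3a2* relative to *Slc7a5* were 1.28 to 1.59 in vehicle and 1.94 to 2.97 in AGX51. Relative to *Slc7a6* they were 4.45 to 5.40 in vehicle and 7.67 to 13.1 in AGX51. Counts of *Slc7a11* relative to *Slc3a2* were 0.00334 to 0.0102 in vehicle and 0.0262 to 0.0395 in AGX51, so that this light chain gene moved further than the heavy chain gene. Each of these 3 ratios was greater with AGX51 in 4 of 4 cultures, with no overlap of the groups. In these and all other ratios given here, the gene with the larger log2 fold change was put first. Their common direction therefore follows from that choice, and the share of other gene pairs without overlap was not computed.

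**Figure D3:**
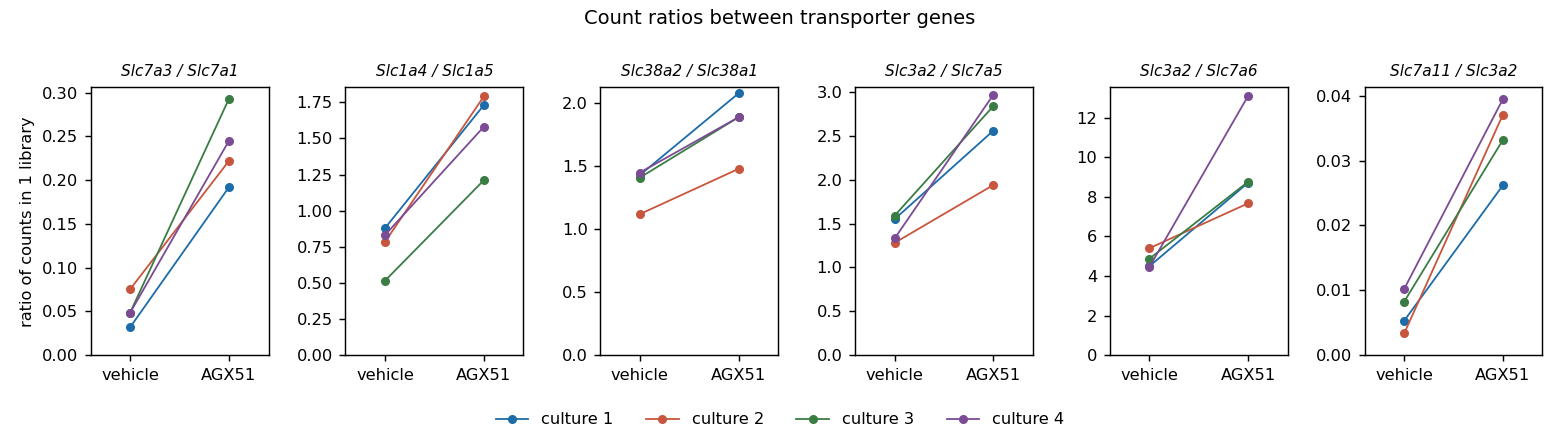
Ratios of the counts of 2 transporter genes within each library (vertical axes, no unit, from 0), for pairs that share a substrate or a complex. Points are libraries and lines join the libraries of a culture. All 6 ratios are greater in AGX51 in 4 of 4 cultures, and the AGX51 points of Slc7a3 to Slc7a1 (0.192 to 0.293) lie well above the vehicle points (0.032 to 0.0754). In each pair the gene with the larger log2 fold change is the numerator, so that the common direction follows from how the pairs were written. Ratios depend on how well each transcript is captured, so that only the change between groups can be read.

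*Slc1a4* and *Slc1a5* encode ASCT1 and ASCT2, sodium-dependent exchangers of neutral amino acids. ASCT1 prefers alanine, serine, cysteine and threonine, and ASCT2 also moves glutamine. *Slc1a4* (ENSMUSG00000020142; chromosome 11, 20302180 to 20332713) was at 3.18, 4.80, 3.89 and 5.11 CPM in vehicle and at 13.4, 16.3, 9.14 and 18.0 CPM in AGX51. There was no overlap, and culture 3 was again the lowest AGX51 library. The group levels were 4.25 ± 0.881 and 14.2 ± 3.87 CPM (SD, n = 4), and the log2 fold change was 1.81 (SE 0.23).

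*Slc1a5* (ENSMUSG00000001918; chromosome 7, 16781340 to 16798274) was at 3.62, 6.12, 7.56 and 6.16 CPM in vehicle and at 7.72, 9.06, 7.53 and 11.4 CPM in AGX51. Here the groups overlapped, since the vehicle library of culture 3 was level with its AGX51 library. Group levels were 5.86 ± 1.64 and 8.92 ± 1.77 CPM (SD, n = 4), and the log2 fold change was 0.70 (SE 0.24). Of the 7 calls this one depended most on the analysis: it was lost in 12 of 22 alternatives. It was not called when vehicle replicate 1, 2 or 4, or AGX51 replicate 2, 3 or 4, was left out (log2 fold change 0.52 to 0.83 over all libraries left out in turn). Counts of *Slc1a4* relative to *Slc1a5* were 0.515 to 0.879 in vehicle and 1.21 to 1.79 in AGX51, greater in each culture.

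*Slc38a1* and *Slc38a2*, both on the minus strand of chromosome 15, encode SNAT1 and SNAT2, sodium-coupled carriers of glutamine, alanine and other small neutral amino acids. *Slc38a2* (ENSMUSG00000022462; 96687392 to 96699730) was at 100.2, 86.4, 110.5 and 93.6 CPM in vehicle and at 186, 145, 145 and 146 CPM in AGX51. The groups did not overlap, and culture 1 stood above the others with AGX51. Group levels were 97.7 ± 10.2 and 155 ± 20.2 CPM (SD, n = 4), with a log2 fold change of 0.74 (SE 0.11).

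*Slc38a1* (ENSMUSG00000023169; 96571418 to 96642913) was at 70.3, 77.3, 78.1 and 64.6 CPM in vehicle and at 89.4, 97.6, 76.3 and 77.2 CPM in AGX51. With AGX51, cultures 3 and 4 stayed within the range of the vehicle libraries. The log2 fold change of 0.30 (SE 0.09) is below the 1.5-fold limit, and the gene was called in 1 of 22 alternatives, the 1 without a fold limit. Counts of *Slc38a2* relative to *Slc38a1* were 1.12 to 1.45 in vehicle and 1.48 to 2.08 in AGX51, again greater in each culture. Across the 10 genes, exons of none shared bases with another gene of the GENCODE M21 annotation, on either strand.

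**Figure D4:**
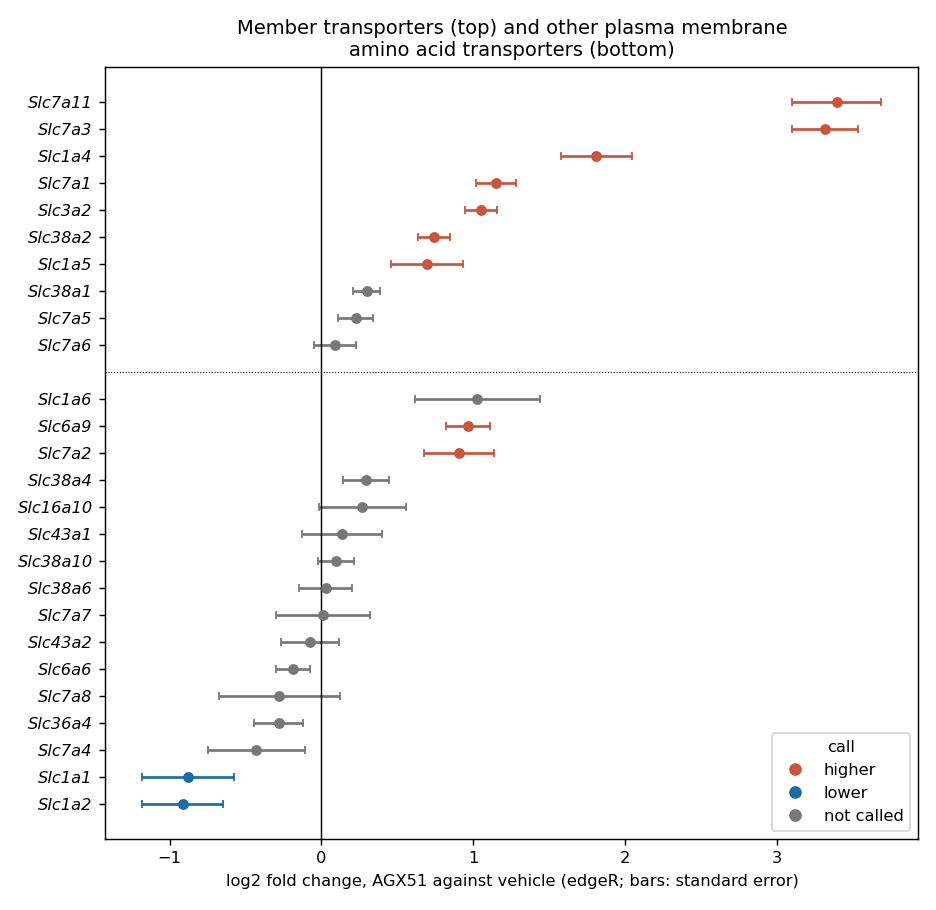
Log2 fold change of AGX51 against vehicle from edgeR (horizontal axis, bars are the SE) for the 10 transporter genes (above the dotted line) and 16 other tested plasma membrane amino acid transporter genes (below it). Red is higher, blue lower and grey not called. The 10 genes span 0.09 to 3.39 and were chosen on this measure, and the other 16 span -0.91 to 1.03 on both sides of 0.

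The cultures differed in the size of the change. For 6 of the 10 genes all AGX51 libraries lay above all vehicle libraries, an order seen in 10.6% of tested genes (the opposite order in 17.9%). The same 6 genes were the ones with a positive difference in 4 of 4 cultures. Within cultures 1, 2, 3 and 4 the AGX51 library was above its vehicle library for 9, 10, 6 and 9 of the genes. The shares of all tested genes for these counts within cultures were not computed, and nothing is read from them. Culture 3 had the smallest median log2 difference over the 10 genes, 0.44, against 1.00, 0.82 and 0.92 in cultures 1, 2 and 4. Summed over the 10 genes, CPM went from 487, 503, 519 and 437 in vehicle to 841, 841, 699 and 764 in AGX51. In unscaled CPM the median log2 difference over all tested genes was 0.02, 0.01, -0.22 and -0.10 in cultures 1 to 4. For these medians a small constant was added to CPM before the log, which was not done for the transporter differences. Culture 3 was thus also the lowest over all genes, and its part in the transporter values was not tested. The order by culture was not the same for every gene: *Slc7a11* differed most in culture 2 (4.38), *Slc7a3* in culture 1 (4.13) and *Slc3a2* in culture 4 (1.34).

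**Figure D5:**
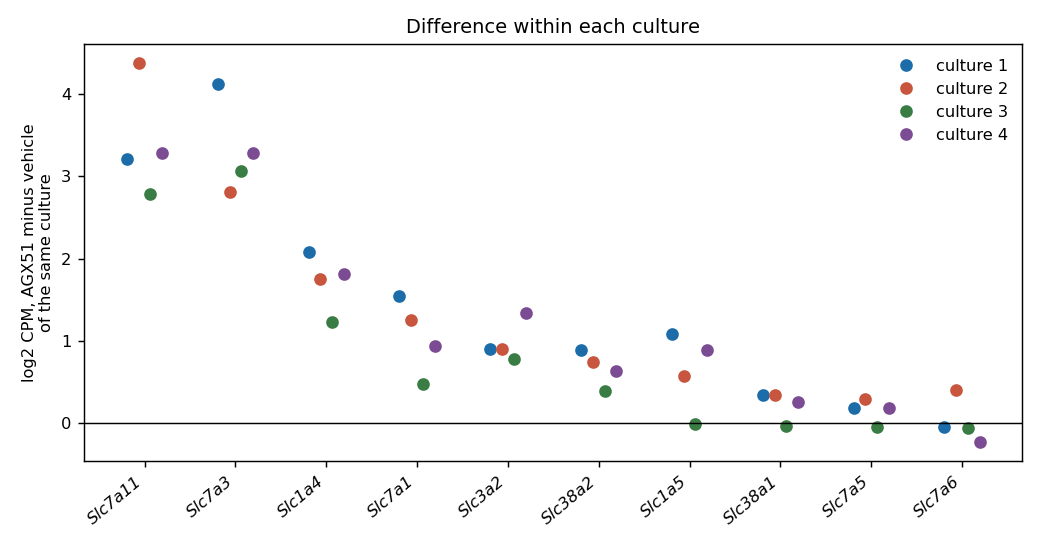
Difference of log2 CPM, AGX51 minus vehicle of the same culture (vertical axis), for each transporter gene, with 1 point per culture. Points of culture 3 are the lowest for 6 of the 7 genes with a call, and its points for Slc1a5, Slc38a1, Slc7a5 and Slc7a6 lie just below 0.

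For each of the 10 genes, the other tested gene with the most similar log2 CPM over the 8 libraries was looked up among 14418 genes. These correlations include the difference between the groups and are a description. Each is also the highest of 14418 over only 8 libraries, so that a value near 1 does not by itself show shared regulation. *Slc7a11* was most like *Ubxn7* (Pearson r = 0.997), *Slc7a3* like *Tjap1* (0.996), *Slc3a2* like *Nfil3* (0.994), and *Slc1a4* like *Cyb5r1* (0.991). *Slc38a2* was most like *Ccdc66* (0.991), *Slc7a1* like *Fads2* (0.988) and *Slc1a5* like *Bcat2* (0.982), the mitochondrial branched-chain aminotransferase. *Slc38a1*, *Slc7a5* and *Slc7a6*, the 3 without a call, were most like *Kansl1* (0.997), *Rnf44* (0.980) and *Dleu2* (0.968). Among the 10 themselves, *Slc7a3* was the closest to 5 others, with r from 0.904 to 0.958, whereas no gene of the set came closer to *Slc7a6* than r = 0.404.

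The remaining amino acid transporter genes of the plasma membrane moved both ways. Of 39 named, 21 were in the table and 16 were tested. By edgeR 2 were higher (12.5%) and 2 lower (12.5%), near the shares of all tested genes, and the median log2 fold change was 0.02. The transporters already picked on their values are not among them. *Slc6a9*, the glycine transporter GLYT1, rose from 8.13 ± 0.407 to 15.1 ± 1.35 CPM (SD, n = 4; log2 fold change 0.97, SE 0.15, edgeR adjusted p = 0.000403). Its exons overlap those of *B4galt2* and *Ccdc24* on the opposite strand, and whether the counting used strand is not given in the sources used here. *Slc7a2*, the third cationic carrier CAT2, rose from 2.91 ± 0.678 to 5.19 ± 0.726 CPM (log2 fold change 0.91, SE 0.23, edgeR adjusted p = 0.0104), a call lost when all libraries were thinned to equal depth (0.89). Exons of *Slc7a2*, *Slc1a1*, *Slc1a2* and *Nedd4l* likewise overlap antisense exons of another gene.

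The glutamate transporter genes *Slc1a2* and *Slc1a1*, from the same family as *Slc1a4* and *Slc1a5*, were lower. *Slc1a2* fell from 4.37 ± 0.761 to 2.27 ± 0.734 CPM (log2 fold change -0.91, SE 0.27, edgeR adjusted p = 0.0198) and *Slc1a1* from 6.01 ± 2.24 to 3.08 ± 0.854 CPM (-0.88, SE 0.30, adjusted p = 0.043). Both calls are fragile. The *Slc1a1* call was lost when any of vehicle replicates 1, 2 and 3 or AGX51 replicates 1, 2 and 4 was left out, and after adjustment for the mean of fibroblast markers (log2 fold change -0.53). It was also lost with limma-voom (-0.84, limma-voom adjusted p = 0.0631) and at equal depth (-0.87, edgeR adjusted p = 0.107). The *Slc1a2* call was lost when vehicle replicate 2, AGX51 replicate 3 or both libraries of culture 4 were left out. *Slc1a6*, a further glutamate transporter named after its values were seen, had a log2 fold change of 1.03 (SE 0.41, edgeR adjusted p = 0.0756), and with the replicate block, which compares within cultures, it was called higher (0.96, adjusted p = 0.0122), as it was when AGX51 replicate 3 was left out (1.25, adjusted p = 0.0449).

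Transporters of other membranes were looked at beside the 8.57% higher and 9.93% lower of all tested genes. None of 7 tested lysosomal genes was called by edgeR, DESeq2 or limma-voom, while 2 were higher and 1 was lower at an unadjusted p under 0.05. The cystine exporter *Ctns* (log2 fold change 0.50, SE 0.16, edgeR adjusted p = 0.0299) and the cationic amino acid exporter *Pqlc2* (-0.51, SE 0.15, adjusted p = 0.0179) passed the p limit below 1.5-fold. *Ctns* was called higher when vehicle replicate 2 was left out (0.68, adjusted p = 0.00503) and after adjustment for fibroblast markers (0.61), and *Pqlc2* was called lower at equal depth (-0.60) and when both libraries of culture 4 were left out (-0.59). The other 5 were *Slc38a7* (0.42, adjusted p = 0.0956), *Slc15a4* (0.14, 0.513), *Slc38a9* (0.03, 0.835), which senses arginine for mTORC1, *Slc36a1* (0.01, 0.973) and *Mfsd12* (-0.32, 0.235). Of 10 mitochondrial carrier genes 1 was higher and 1 lower (10% each). *Slc25a38*, the glycine carrier, was higher by 0.64 on the log2 scale (SE 0.22, edgeR adjusted p = 0.0403), a call that was lost when any of vehicle replicates 1, 2 and 3 or AGX51 replicates 1 and 4 or both libraries of culture 4 was left out, after adjustment for fibroblast markers (0.43), at equal depth (0.64), and with scaling by the upper quartile (0.585) or by library totals alone (0.56). *Slc25a44*, the carrier of branched-chain amino acids, was lower, with a log2 value of -0.61 (SE 0.15, edgeR adjusted p = 0.00727), a call lost when vehicle replicate 2 or 3 or AGX51 replicate 1 or 3 was left out. The aspartate-glutamate carriers *Slc25a12* (-0.49, adjusted p = 0.0265) and *Slc25a13* (-0.42, 0.0438) were below the fold limit. The others, *Slc25a15* (-0.05), *Slc25a22* (0.14), *Slc25a29* (-0.24), *Sfxn1* (0.21), *Sfxn2* (-0.33) and *Sfxn3* (-0.10), had adjusted p of 0.239 or above.

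Proteins known, mostly from human cells, to steer these carriers to or from the surface came next. Of 8 tested genes 1 was higher (12.5%, near the 8.57% of all tested genes) and none lower by edgeR, DESeq2 or limma-voom. At an unadjusted edgeR p under 0.05, 3 were higher and none was lower. *Nedd4l*, a ubiquitin ligase that removes several carriers from the surface, rose from 15.5 ± 3.35 to 22.4 ± 3.39 CPM (log2 fold change 0.61, SE 0.17, edgeR adjusted p = 0.0166). That call was lost when vehicle replicate 1, AGX51 replicate 4 or both libraries of culture 4 were left out, after adjustment for fibroblast markers (0.45), and with scaling by the upper quartile (0.55) or by library totals alone (0.53). *Laptm4b*, which draws LAT1 and 4F2hc to lysosomes, was at 0.36 (adjusted p = 0.0698), and *Otub1*, which stabilises xCT, at 0.23 (0.0906). The remaining genes were *Arl6ip5* (0.36, adjusted p = 0.342), *Bsg* (0.26, 0.175), *Cd44* (0.10, 0.76), *Rnf5* (0.05, 0.881) and *Nedd4* (-0.14, 0.461).

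Genes that control transcription of the carriers were examined next. The list was drawn up with results of these data known, so that its counts and adjusted p are a description. Only mRNA levels are given, and the amount or activity of the encoded proteins was not measured here. Of 21 tested, 7 were higher (33.3%) and 1 was lower (4.76%) by edgeR, against 8.57% and 9.93% of all tested genes, and the median was 0.36 against 0. The genes that were higher were *Atf4* (1.79, SE 0.10, edgeR adjusted p = 3.79e-07), *Cebpg* (0.82, adjusted p = 0.000169) and *Cebpb* (1.15, 0.0037), which encode partners of ATF4, and *Ddit3* (3.27, 4.01e-07), *Trib3* (3.30, 3.79e-07), *Atf3* (2.62, 1.16e-05) and *Ppp1r15a* (1.05, 6.8e-05), all higher in 4 of 4 cultures. Not called were *Atf5* (0.36, adjusted p = 0.278), *Eif2ak3* (0.16, 0.406), the gene of the kinase PERK, and *Ppp1r15b* (0.39, 0.0156, below 1.5-fold), all of which act on or beside ATF4 and were named after their values were seen. Exons of *Ddit3*, *Cebpb*, *Cebpg* and *Ppp1r15a* overlap another gene on the opposite strand. *Eif2ak4*, the kinase GCN2 that senses uncharged tRNA, passed the p limit below 1.5-fold (-0.48, SE 0.11, adjusted p = 0.00583); it was named after its values were seen. *Mycn*, a transcription factor related to *Myc*, fell from 19.1 ± 3.39 to 7.35 ± 2.21 CPM (-1.33, SE 0.21, edgeR adjusted p = 0.000491). *Nfe2l2*, the gene of NRF2, which also drives *Slc7a11*, was at 90.9 ± 13.7 and 92.2 ± 17.1 CPM (0.10, SE 0.14, adjusted p = 0.647); this gene and *Myc*, at 0.57 (adjusted p = 0.0349), were named after their values were seen.

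Enzymes that make or use the carried amino acids followed. Of 15 tested, 9 (60%, against 8.57% of all tested genes) were higher and none (against 9.93%) was lower by edgeR, DESeq2 or limma-voom, while 1 was lower at an unadjusted p under 0.05. Their median log2 fold change was 0.68, against 0 over all tested genes. The list was likewise drawn up with earlier results known, so that its counts and adjusted p are a description and no separate support for the transporter values. On the side of cystine and glutathione, where *Slc7a11* acts, *Cth*, which makes cysteine, rose from 2.19 ± 0.425 to 9.66 ± 3.39 CPM (log2 fold change 2.21, edgeR adjusted p = 0.000148), and *Gclm* (0.64, 0.000296) and *Gss* (0.68, 0.000334), both of glutathione synthesis, were higher too. *Gclc*, the catalytic partner of *Gclm*, stood at -0.25 (adjusted p = 0.113) and was named after its values were seen. The *Gclm* call was lost at equal depth (0.56) and with scaling by library totals alone (0.57). Exons of *Gss* overlap *Acss2* on the opposite strand, and those of *Gclm* overlap *Gm17494*.

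On the side of glutamine and asparagine, *Asns*, asparagine synthetase, rose from 155 ± 1.75 to 336 ± 79.6 CPM (1.21, SE 0.17, edgeR adjusted p = 0.000268) and *Glul*, glutamine synthetase, from 49.6 ± 2.47 to 84.5 ± 10.2 CPM (0.84, SE 0.10, adjusted p = 9.06e-05). *Psat1* of serine synthesis (0.91, adjusted p = 0.000132), *Bcat1*, the cytosolic branched-chain aminotransferase (1.43, 0.000313), and *Odc1*, which makes putrescine from ornithine (1.56, 0.00143), were also higher. The ninth was *Arg2*, mitochondrial arginase (0.71, adjusted p = 0.0177), named after its values were seen, and its call was lost when AGX51 replicate 3 (0.62) or culture 4 (0.69) was left out. Exons of *Arg2* (with *Vti1b*), *Glul* (with *Teddm2*) and *Bcat1* (with *Gm26666*) overlap a gene on the opposite strand. Arginine, ornithine, cystine, glutamine and serine are the substrates that *Slc7a1*, *Slc7a3*, *Slc7a11*, *Slc38a2* and *Slc1a4* carry.

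Other cell types were followed through their markers. All 10 germ cell markers were present and tested, and 1 was higher and 2 were lower, against 8.57% and 9.93% of all tested genes. *Sohlh1* was higher (log2 fold change 0.85, edgeR adjusted p = 0.00699), and *Dazl* (-1.22, 6.99e-05) and *Gfra1* (-0.70, 0.00228) were lower. *Uchl1* (0.47, adjusted p = 0.00131) and *Zbtb16* (-0.49, 0.0039) passed the p limit below 1.5-fold. *Ddx4* (-0.18), *Sall4* (-0.15), *Ret* (-0.22), *Lin28a* (-0.25) and *Foxo1* (-0.10) had adjusted p of 0.0726 or above. The summed level of the 10 was 1463 to 1796 CPM in vehicle and 848 to 1161 CPM in AGX51, a drop that lay mostly in *Dazl* (833 ± 99.3 and 339 ± 57.7 CPM; SD, n = 4), while the average of their log2 CPM differed by -0.17 to -0.26 within the cultures. Of 20 fibroblast markers 19 were tested (*Fap* was not listed), and 8 were higher (42.1%; 7 with the replicate block) and 2 lower (10.5%) with AGX51. Of these, *Thy1* (log2 fold change 0.88), *Sparc* (0.83), *Fn1* (0.79), *Col6a1* (0.93), *Dcn* (0.97) and *Col6a2* (1.06) were higher at edgeR adjusted p of 0.00688 to 0.0134, and *Twist1* (-0.70, adjusted p = 0.00119) and *Prrx1* (-1.12, 0.0197) were lower. Their summed level was 1750 to 2939 CPM in vehicle and 2593 to 4867 CPM in AGX51. On average over the markers, log2 CPM stood at 5.34 with vehicle and 5.71 with AGX51 and was the larger with AGX51 in each of the 4 cultures, by 0.27, 0.34, 0.30 and 0.56 in cultures 1 to 4. A two-sided exact permutation test that ignores the pairing by culture gave p = 0.2, and exact sign flips within cultures gave p = 0.125, the smallest value that 4 pairs allow. With this mean as a covariate, *Slc1a5* was no longer called (log2 fold change 0.40), and the other 6 transporter genes with a call kept it. None of the 19 tested markers was at 0 in any library, and the part of feeder cells in the levels was not tested further. Of the markers of Sertoli, Leydig and macrophage cells 3 of 6, 1 of 5 and 2 of 5 were listed, with *Amh*, *Cyp17a1* and *Ptprc* among those not listed. The Sertoli markers *Sox9* (-0.05), *Wt1* (-0.55) and *Rhox5* (0.00) were not called, and the Leydig marker *Star* was higher (0.75, edgeR adjusted p = 0.039). Of the macrophage markers *Cd68* was higher (0.85, adjusted p = 0.00169) and *Lyz2*, at -0.30 (adjusted p = 0.6), was below vehicle in each culture. Of 4 endothelial markers 2 were tested, and *Kdr* was lower (-2.57, adjusted p = 0.00014) while *Pecam1* was not called (-0.24, 0.572).

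Library totals were 8330176 to 9586105 counts with vehicle and 4303318 to 8441399 with AGX51. The AGX51 total was the smaller of the 2 in each culture (p = 0.0571 by a two-sided exact permutation test that ignores the pairing by culture, where 0.0286 is the smallest possible, and p = 0.125, again the smallest possible, by exact sign flips within cultures). Of these totals the 10 genes took 4184 to 4666 counts with vehicle and 3618 to 6451 counts with AGX51. When all libraries were thinned to 4303318 counts, the calls of *Slc7a1*, *Slc7a3*, *Slc7a11*, *Slc3a2*, *Slc1a4* and *Slc38a2* were kept and that of *Slc1a5* was lost.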

How the data were processed

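The authors made raw counts per gene with the RNAsik pipeline. GRCm38 is the build, and STAR, featureCounts, Salmon, limma and edgeR are tools, named in the submitters' processing notes, with no versions or roles. Use of strand in counting is not given in the sources used here. The deposited CPM are counts scaled by the authors to library totals. Deposited columns of the authors' own comparison, made with limma-voom in Degust (log2 fold change, average log2 expression, FDR and p-value), were not used. For 22 genes with a date in place of a symbol the symbol was restored by gene ID; 17147 IDs are in GENCODE M21.

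From the counts, edgeR 4.0.16 (R 4.3.3) was run with filterByExpr (minimum count 10, minimum total 15; 2739 genes were not tested), TMM and glmQLFTest, with Benjamini-Hochberg adjustment. A gene is called at an adjusted p under 0.05 with a fold above 1.5, the limits in the study's methods. The SE is the log2 fold change over the root of F. Alternatives used DESeq2 1.42.0, limma 3.58.1 (voom), other scalings, filters and fold limits, the replicate block, equal depth, a fibroblast covariate and libraries left out. The main edgeR fit and its call rule were tested on simulated counts, and the alternatives and other steps were not. The 12 pairs of libraries within a group gave a chi-square of 6.27 to 19 per degree of freedom, above counting noise.

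By the labels, vehicle and AGX51 libraries with the same number carry the same culture letter, so numbers pair them. After group means were removed, the correlation was 0.113 to 0.444 between such libraries and -0.287 to 0.0951 between others. The replicate block left 7 transporter genes higher and none lower.

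The 10 genes and all lists were chosen with earlier results of these data known. Named in the text are the 10 genes, called genes of each list with at least 1 CPM (up to 8 by adjusted p), every tested gene of lists of 12 or fewer, the most similar gene for each of the 10, and genes stated as named after their values were seen. Promoter sequences are from RefSeq (GRCm38.p6).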

Additional observations from a re-analysis of the deposited data

Results flagged for a closer look

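In 30 groups of 4 values examined (the 10 transporter genes by group and the paired differences), 2 held a value far from the others, where chance gives about 1 in 20 groups. The *Slc3a2* level of vehicle replicate 4 was 112.9 CPM, against 143.8 to 148.4 CPM in the other vehicle libraries, a gap of 0.870 of the group's range. The *Slc38a2* level of AGX51 replicate 1 was 185.5 CPM, against 144.5 to 146.3 CPM in the other AGX51 libraries, a gap of 0.956 of the range. Both genes were called higher when these libraries were left out.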

How the results depend on the processing

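Through the 22 alternatives 57 genes were followed, the 10 transporter genes and 47 genes of the transporter, regulator and enzyme lists (marker genes were not). None of the 10 and no other called gene among the 57 changed direction, while 10 of the 57 without a call, all with a log2 fold change within 0.36 of 0, had the other sign in at least 1 alternative. *Slc7a1* (log2 fold change 1.05 to 1.27), *Slc7a3* (3.13 to 3.60), *Slc7a11* (2.95 to 3.56), *Slc3a2* (0.92 to 1.10) and *Slc1a4* (1.54 to 1.96) were called in all 22, *Slc38a2* (0.64 to 0.82) in 21 and *Slc1a5* (0.40 to 0.83) in 10; *Slc7a5* (0.14 to 0.32) and *Slc7a6* (0.02 to 0.26) were called in 0. The transporter genes called higher numbered 7, and 5 to 8 in the alternatives, 5 at a fold above 2. All alternatives used the libraries on which the 10 genes were picked, so that a kept call is no separate support for a difference. With the replicate block they numbered 7, no call of the 10 changed, and other plasma membrane transporters called higher went from 2 to 3. Of those others 2 were lower; 3 were lower with no count filter, 1 with limma-voom, at equal depth, with the fibroblast covariate or without culture 4, 0 to 2 with 1 library left out, and 0 at a fold above 2. Higher were 1 at equal depth, 2 to 3 with 1 library left out and 0 at a fold above 2. Over all tested genes 1236 were higher and 1432 lower (46.3% of calls higher). Library totals alone gave 952 and 1752 (35.2%) and moved the median of all genes to -0.074. No fold limit gave 2190 and 2211, and a fold above 2 gave 486 and 626. Counts are lowest for *Slc7a11*, 4 to 11 in each vehicle library, and at equal depth its call was kept. Exact sign flips within cultures, added after the data were seen, gave p = 0.125 for library totals and for fibroblast markers.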
